A study of Mus musculus with 3 samples.

Results

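The 10 genes described here encode enzymes that remove methyl groups from lysine 36 of histone H3 and proteins that bind H3K36me3, the trimethylated form of that lysine. The 5 demethylase genes were Kdm2a, Kdm2b, Kdm4a, Kdm4b and Kdm4c, and the 5 reader genes were Psip1, Morf4l1, Brpf1, Zmynd11 and Msh6. They were picked by the known role of their proteins, with earlier results of these data known. Each was measured by the H3K36me3 peaks whose midpoint lay in its GENCODE M21 gene body. They are 10 of the 11948 annotated genes with such a peak, and they held 252 of 120910 peaks. H3K36me3 had been profiled by chromatin immunoprecipitation sequencing (ChIP-seq) in regulatory T cells (Treg cells) of adult C57BL/6 mice that carry Foxp3Cre-YFP, a reporter allele that makes Foxp3-expressing cells fluorescent, and have an unedited Setd2 gene. CD3+CD4+Foxp3-YFP+ cells were sorted out of 2 tissues, spleen and large intestine (LI), with the cells of 7 male and 7 female mice pooled. There was 1 immunoprecipitated library of splenic Treg cells and 1 of LI Treg cells, and an input library of splenic chromatin, used by the authors to call the peaks of both tissues and not analysed here. With 1 library per tissue no test between tissues can be made, and each difference below is a difference between these 2 libraries.

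H3K36me3 is laid down by Setd2, which travels with elongating RNA polymerase II, so the mark covers the bodies of transcribed genes and usually builds up toward their 3' ends. Kdm2a and Kdm2b mainly demethylate H3K36me2 and also carry a zinc finger that binds unmethylated CpG dinucleotides, while Kdm4a, Kdm4b and Kdm4c act on trimethylated H3K36 and H3K9. Readers recognise the mark through a PWWP domain (Psip1, Brpf1, Zmynd11, Msh6) or a chromodomain (Morf4l1) and bring splicing, acetylation, elongation control or mismatch repair to the marked nucleosome. The genes of these proteins are themselves transcribed, and the values below are the mark on the genes, not the amount or activity of the proteins.

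The deposited value of a peak was its mean coverage in RPKM, that is, scaled for length and for the number of mapped reads. LI values were divided by 1.03, the ratio of the column totals over all peaks, so that both libraries had equal totals. The depth read from the step size of the values was 29.6 M mapped reads in spleen and 38.1 M in LI. All 8 Treg and T cell marker genes had peaks, among them Foxp3 with 132.5 RPKM in spleen and 151.4 RPKM in LI. Of the myeloid markers 4 of 6 had no peak (Lyz2, Itgam, Adgre1 and Spi1), and of the epithelial markers 5 of 8 (Cdh1, Krt8, Krt18, Krt20 and Cdx2). The summed epithelial list had 55.1 RPKM in spleen and 90.9 RPKM in LI, with Epcam at 25.3 and 45.8 RPKM. Of B cell genes, Cd79a had 47.2 RPKM in spleen and 28.9 RPKM in LI (log2 ratio of LI over spleen -0.70), Cd79b 8.96 and 13.3 RPKM and Pax5 4.05 and 9.601 RPKM, and Ms4a1 and Ebf1 had no peak. The myeloid list had 29.7 and 30.4 RPKM, the CD8 T cell list, without a peak in Cd8a, 21.1 and 9.16 RPKM, and the Treg and T cell list 1886 and 1515 RPKM. Ikzf2 alone gave 1205 RPKM of that last sum in spleen and 824.3 RPKM in LI. In that list 3 genes were higher in LI and 5 in spleen. The part of other cell types in the results below was not tested. A lower value in bulk cells can come from fewer marked cells or from less mark per cell, and these cannot be told apart.

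All 10 genes carried H3K36me3 peaks with signal in both tissues, and no gene differed by as much as 2-fold. The log2 ratio of LI over spleen, computed on summed peak values with 0.5 RPKM added, ran from -0.36 in Psip1 to 0.17 in Zmynd11, with a median of -0.03. Among all 10849 genes whose peaks reached 20 RPKM summed over both tissues the median was 0.00 and the middle 50% lay between -0.20 and 0.24. All 10 members passed this filter, 8 lay within that middle range, and Psip1 and Kdm2a lay below it. Of the members 0 of 10 were past 2-fold, against 3.36% of all tested genes higher in LI and 2.03% higher in spleen. Signal was higher in LI for 5 members (Zmynd11, Kdm4b, Kdm2b, Brpf1 and Kdm4a) and higher in spleen for the other 5, beside 50.7% of all genes above 0. In these sums each peak counted the same whatever its length. With peaks of 1 kb or more alone, Kdm4a (-0.011) and Brpf1 (-0.0088) turned below 0. The median was 0.04 for the demethylases and -0.14 for the readers, a difference of -0.17 that turned to 0.05 with the correction for GC content given below. Without that correction the difference was -0.24 with peaks weighted by length, -0.24 with peaks of 1 kb or more alone and -0.25 with the strongest peak alone.

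An approximate 95% counting interval was given to each ratio from the depth, with each read taken to cover 200 bp. It covers counting error only and treats reads as independent molecules. The interval lay above 0 for 2 members, Kdm2b and Kdm4b, and below 0 for 2 members, Kdm2a and Psip1. Over all genes it lay above 0 for 18% and below 0 for 15.3%, so 4 of 10 members stand beside 33.3% of all genes. All 4 of these calls were lost with a correction for the GC content of the peaks, described below, after which the interval included 0 for all 10 members and left it out in 26.5% of all genes. With peaks weighted by length and no GC correction, the intervals of Morf4l1 (ratio -0.21) and Msh6 (-0.24) also lay below 0.

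**Figure D1:**
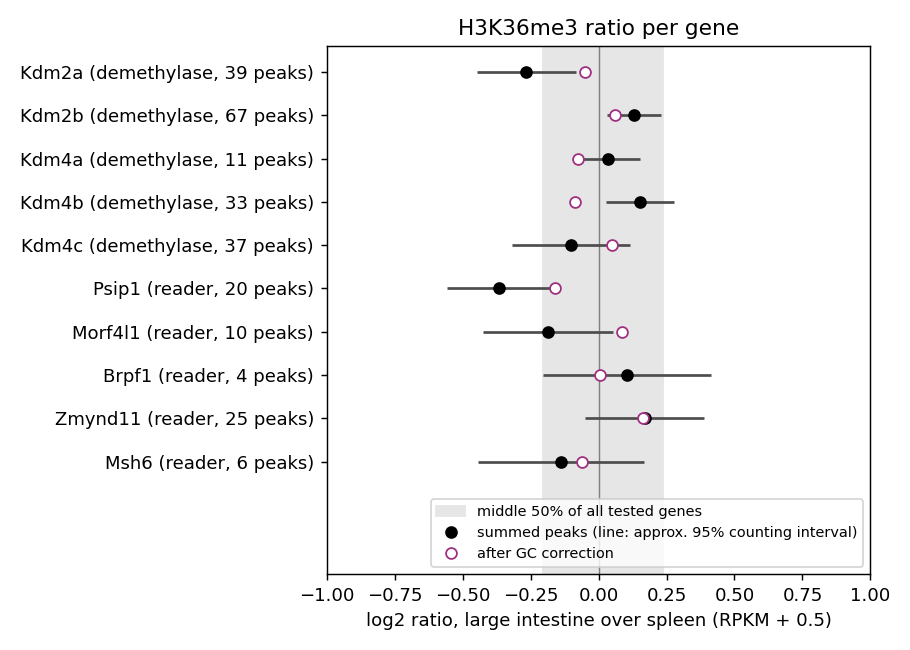
Log2 ratio of H3K36me3, large intestine over spleen, for each gene (rows); filled points are summed peaks with the approximate 95% counting interval as a line, open points the same after correction for GC content, and the grey band the middle 50% of all tested genes. All 10 filled points lie between -0.36 and 0.17, and only those of Psip1 and Kdm2a lie outside the band.

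The amount of mark per length differed more between the genes than between the tissues. The level was taken as peak signal times peak length divided by gene length, which is mean RPKM over the gene body counting peaks alone. Kdm4a had the highest level, 21.8 RPKM in spleen and 22.3 RPKM in LI, followed by Brpf1 with 19.0 and 19.1 RPKM. These are the 2 members in the top 10% of protein-coding genes, whose median level was 4.84 RPKM.

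A middle set of 6 genes lay between 6.07 and 11.6 RPKM. Levels in spleen and LI were 10.003 and 11.6 RPKM for Kdm4b, 10.7 and 8.99 RPKM for Msh6, 8.75 and 9.99 RPKM for Kdm2b, and 9.93 and 8.62 RPKM for Psip1. They were 9.17 and 7.95 RPKM for Morf4l1 and 6.96 and 6.07 RPKM for Kdm2a. Within the first 5 of these genes the order was not the same in the 2 tissues, with Msh6 first in spleen and Kdm4b first in LI. Zmynd11 (2.55 and 2.81 RPKM) and Kdm4c (0.81 and 0.76 RPKM) were lowest and below the median coding gene. Peaks covered 89.3% of the Kdm4a body and 85.4% of the Brpf1 body, but 17.8% of Zmynd11 and 9.41% of Kdm4c.

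**Figure D2:**
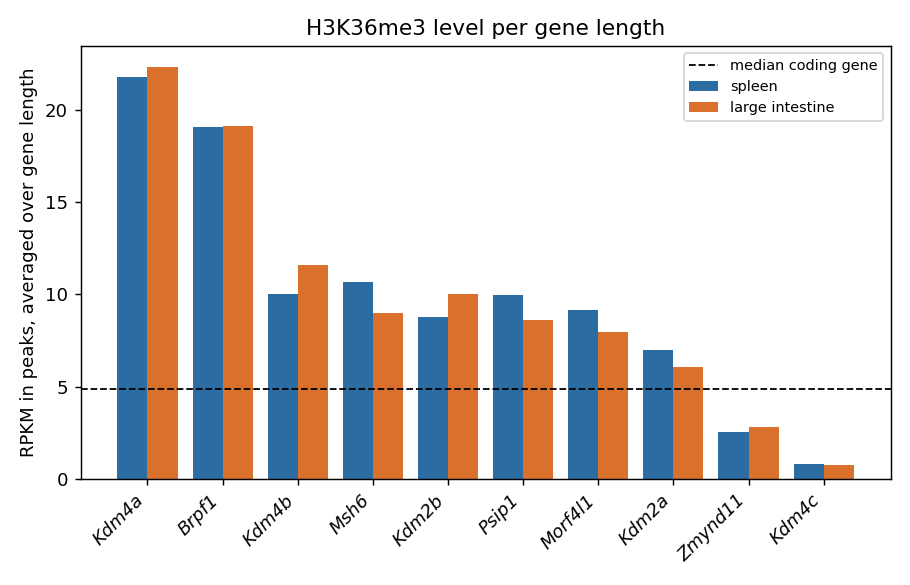
H3K36me3 level per gene length (RPKM in peaks averaged over the gene body) in spleen and large intestine, 1 library each, ordered by mean level; the dashed line is the median protein-coding gene. Kdm4a and Brpf1 stand near 20 RPKM in both tissues and Kdm4c is below 1 RPKM in both.

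Single peaks scattered more widely than whole genes. Among all 120910 peaks 9.03% were past 2-fold higher in LI and 9.58% higher in spleen, and among the 252 member peaks 16 (6.35%) and 20 (7.94%). All 36 of these member peaks were under 1 kb, and 0 of the 68 longer ones passed 2-fold, beside 2.57% of all peaks of at least 1 kb. Of these long member peaks 37 of 68 were higher in LI, beside 51.4% over all, and of the whole 252 it was 119 (47.2%), beside 49%. The counting interval lay above 0 in 20 member peaks (7.94%) and below 0 in 14 (5.56%), beside 7.16% and 6.96% of all peaks. The SD of the log2 ratio was 0.79 over member peaks under 1 kb and 0.30 over longer ones.

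The ratio moved with base composition, among the members as over all peaks. Across 20 groups of peaks of equal size ordered by GC content, the median ratio ran from -0.53 in the lowest to 0.35 in the highest. Of the 47 member peaks of at least 1 kb with 45% GC or more, 35 were higher in LI (median 0.14), and of the 21 with less GC, 2 were (median -0.22). Over all peaks of that length 63.8% and 31.7% were higher in LI. The same holds between the genes, as a description. The 5 members higher in spleen had 39.8% to 43.1% GC in their peaks by length, and the 5 higher in LI had 47.3% to 55.04%, beside a median of 48.2% over all tested genes.

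When the median ratio of peaks with like GC content was subtracted from each peak, the member ratios ran from -0.16 (Psip1) to 0.16 (Zmynd11), and 9 of 10 came closer to 0 or changed sign with a smaller size. Kdm2a went from -0.27 to -0.05, Kdm2b from 0.13 to 0.06 and Brpf1 from 0.10 to 0.00. The sign changed in Kdm4a (-0.08), Kdm4b (-0.09), Kdm4c (0.05) and Morf4l1 (0.09). The part of GC content in each ratio was not tested beyond this correction.

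**Figure D3:**
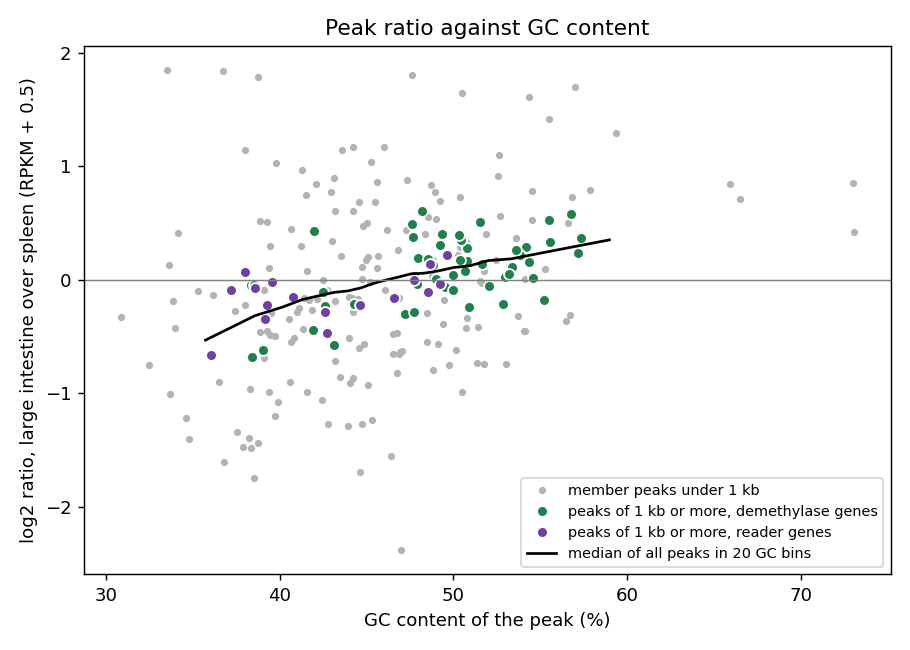
Log2 ratio of large intestine over spleen against GC content for the 252 member peaks; coloured points are peaks of 1 kb or more (green demethylase genes, purple reader genes), grey points shorter peaks, and the line the median of all peaks in 20 GC groups. The coloured points follow the line, mostly below 0 at low GC content and mostly above 0 at high GC content, and the grey points scatter past 2-fold on both sides.

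Sequences are shown for peaks picked because ratio and GC content went together in them. They are the central 120 bases, in the direction of the gene and read from GRCm38, the assembly of mm10, of the peaks of at least 1 kb with the highest and lowest ratio in Kdm2b, the highest in Kdm4b and the lowest in Morf4l1; capitals mark G and C. The windows lie at chr5:122918988-122919107 and chr5:122872520-122872639 (minus strand), chr17:56370529-56370648 (plus strand) and chr9:90093197-90093316 (minus strand).
Kdm2b highest: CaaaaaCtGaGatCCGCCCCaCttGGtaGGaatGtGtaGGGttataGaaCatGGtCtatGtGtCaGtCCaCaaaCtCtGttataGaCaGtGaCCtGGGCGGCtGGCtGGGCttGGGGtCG
Kdm2b lowest: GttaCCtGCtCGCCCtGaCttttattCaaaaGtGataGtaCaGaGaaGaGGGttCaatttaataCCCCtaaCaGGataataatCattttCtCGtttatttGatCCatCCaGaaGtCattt
Kdm4b highest: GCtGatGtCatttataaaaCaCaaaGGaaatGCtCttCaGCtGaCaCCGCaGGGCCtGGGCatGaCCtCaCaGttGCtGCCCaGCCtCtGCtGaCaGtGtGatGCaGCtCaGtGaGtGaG
Morf4l1 lowest: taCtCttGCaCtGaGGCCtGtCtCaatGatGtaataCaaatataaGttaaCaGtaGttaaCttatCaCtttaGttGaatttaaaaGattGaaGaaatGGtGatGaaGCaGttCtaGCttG

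The G and C bases numbered 62 and 43 of 120 in the Kdm2b windows, 63 in the Kdm4b window and 39 in the Morf4l1 window. The whole peaks had 48.2% GC with a ratio of 0.61, 39.0% with -0.62, 56.7% with 0.58 and 36.1% with -0.66, in the order printed. Both Kdm2b peaks have their midpoint in an intron. Psip1 and Brpf1 did not follow this order. In Psip1 the long peak of highest ratio (0.07) had 38.0% GC and that of lowest ratio (-0.46) had 42.7%. In Brpf1 the long peaks of highest and lowest ratio had 47.7% and 49.2%. Kdm2a (42.0% and 38.4%), Kdm4a (51.6% and 50.9%), Zmynd11 (49.6% and 44.6%) and Msh6 (46.6% and 39.1%) did follow it. The Kdm2a peak of highest ratio (0.43) was still low in GC.

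Among the demethylases, Kdm2a (ENSMUSG00000054611.17, mm10 chromosome 19, 4314419 to 4398285, minus strand) had the lowest ratio. Its 39 peaks summed to 389.3 RPKM in spleen and 323.7 RPKM in LI, a log2 ratio of -0.27 (counting interval -0.45 to -0.08). Of its peaks 28 were higher in spleen and 11 in LI. The strongest peak, 14580 bp long (4317059 to 4331638, 88.2% of the way along the gene, with its midpoint in a coding exon), had 23.2 RPKM in spleen and 19.9 RPKM in LI and made up 39.1% of the covered bases. Its ratio was -0.21 (-0.33 to -0.09).

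Short peaks of Kdm2a scattered widely. Past 2-fold were 8 peaks in the spleen direction and 2 in the LI direction, all of them shorter than 1 kb and in introns. The lowest ratio was that of a 200-bp peak at 4380368 to 4380567, named after its value was seen, with 9.69 RPKM in spleen and 2.54 RPKM in LI. Of the 6 Kdm2a peaks of at least 1 kb, the ratios ran from -0.68 (1256 bp, intronic, 4346438 to 4347693) to 0.43 (1820 bp, midpoint in a coding exon, 4342026 to 4343845).

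Kdm2b (ENSMUSG00000029475.17, mm10 chromosome 5, 122870665 to 122989823, minus strand), which also belongs to a variant Polycomb repressive complex 1, had more peaks than any other member. Its 67 peaks summed to 779.7 RPKM in spleen and 853.0 RPKM in LI, a log2 ratio of 0.13 (0.03 to 0.23), and 42 of them were higher in LI. The strongest peak, 1761 bp at 122931602 to 122933362 with its midpoint in a coding exon, had 22.6 RPKM in spleen and 32.5 RPKM in LI, a ratio of 0.51 (0.20 to 0.83). The direction was not the same along the gene. With shorter peaks set aside, 15 successive peaks of at least 1 kb were each higher in LI, with ratios from 0.04 to 0.61. They lay from 35.3% to 92.2% of the gene body. Shorter peaks in that stretch went both ways. Those from 72.3% to 83.0% were all higher in spleen, with ratios from -2.38 to -0.34. The lowest ratio among peaks of at least 1 kb lay near the gene end, at 122871879 to 122873280, with 12.1 RPKM in spleen and 7.72 RPKM in LI (ratio -0.62).

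Kdm2b has a shorter coding transcript, Kdm2b-201, that starts inside the gene at 122900355, 75.1% of the way along. The 55 peaks before that start summed to 623.9 RPKM in spleen and 719.7 RPKM in LI, a ratio of 0.21 (0.10 to 0.32), and 38 of them were higher in LI. The 12 peaks after it summed to 155.7 and 133.3 RPKM, a ratio of -0.22 (-0.47 to 0.02), and 4 were higher in LI. The value after the start turned to 0.06 when peaks were weighted by length, where a peak of 7296 bp with more signal in LI carries most weight, while the value before it was 0.23. After GC correction the values were 0.13 and -0.27. The split at this start was chosen with the peak values known.

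Kdm4a (ENSMUSG00000033326.15, mm10 chromosome 4, 118136957 to 118180043, minus strand) differed least along its length of the 5 members with signal in every part of the gene body. Its 11 peaks summed to 227.4 RPKM in spleen and 233.2 RPKM in LI, a log2 ratio of 0.04 (-0.08 to 0.15), so no difference was detectable at this depth. Its 7 peaks of at least 1 kb ran from 20.2 to 30.5 RPKM in spleen and from 20.02 to 33.1 RPKM in LI. Their ratios lay between -0.24 (1737 bp, 118163501 to 118165237) and 0.14 (8150 bp, 118141310 to 118149459). No peak of the gene reached 2-fold.

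Kdm4b (ENSMUSG00000024201.12, mm10 chromosome 17, 56326062 to 56402870, plus strand) had more mark in LI. Its 33 peaks summed to 479.6 RPKM in spleen and 532.9 RPKM in LI, a log2 ratio of 0.15 (0.03 to 0.28), and 23 of them were higher in LI. The strongest peak, 8976 bp at 56394391 to 56403366, runs past the gene end and had 23.6 RPKM in spleen and 28.0 RPKM in LI (ratio 0.24, interval 0.10 to 0.38). Of 13 peaks of at least 1 kb, 11 were higher in LI. The highest ratio among them was 0.58, in an intronic peak of 1364 bp at 56369907 to 56371270 with 12.8 and 19.4 RPKM. The peaks of Kdm4b were the richest in G and C of any member, with 55.04% GC by length, and its ratio turned to -0.09 after GC correction.

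Kdm4c (ENSMUSG00000028397.13, mm10 chromosome 4, 74242497 to 74405860, plus strand) is the longest of the 10 genes and was the most thinly marked. Its 37 peaks had a median length of 360 bp and summed to 309.3 RPKM in spleen and 288.1 RPKM in LI, a log2 ratio of -0.10 (-0.32 to 0.11). Its reads, 393 in spleen and 488 in LI under the 200-bp assumption, were the fewest of any member. The only peak over 1 kb lay at the gene end (74404399 to 74405543, 99.5% of the way along, coding exon), with 11.1 RPKM in spleen and 8.04 RPKM in LI.

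Among the readers, Psip1 (ENSMUSG00000028484.16, mm10 chromosome 4, 83455680 to 83486459, minus strand), also known as LEDGF, had the lowest ratio of the 10 genes. Its 20 peaks summed to 240.1 RPKM in spleen and 186.4 RPKM in LI, a log2 ratio of -0.36 (-0.56 to -0.17), and 13.3% of all tested genes had a lower one. Of its peaks 18 were higher in spleen. All 6 peaks of at least 1 kb from 13.4% to 85.2% of the gene body were higher in spleen, with ratios from -0.46 to -0.07. The strongest peak, 1375 bp at 83467340 to 83468714, had 19.0 RPKM in spleen and 17.6 RPKM in LI (ratio -0.11, interval -0.53 to 0.31). Leaving out the 6 peaks that also lie in Snapc3, a gene on the opposite strand whose end overlaps that of Psip1, gave -0.40.

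Psip1 makes a long form, p75, and a short form, p52, which ends earlier. The short coding transcript Psip1-203 ends at 83461871, 79.9% of the way along. The 18 peaks before that end summed to 214.6 RPKM in spleen and 161.0 RPKM in LI, a ratio of -0.41 (-0.63 to -0.20). The 2 peaks after it, 25.5 and 25.4 RPKM, gave 0.00 (-0.24 to 0.23), and both also lie in Snapc3. After GC correction the values were -0.23 and 0.30. The 2 peaks behind the second value are 2658 and 4432 bp long, and the correction was not matched for peak length. This split, too, was chosen with the peak values known. The ratio of the gene was -0.16 after GC correction and -0.20 with peaks weighted by length, and it turned to 0.07 with both, an alternative added with the data known.

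Morf4l1 (ENSMUSG00000062270.14, mm10 chromosome 9, 90091665 to 90114774, minus strand), which encodes MRG15, a subunit of acetyltransferase and deacetylase complexes, had 114.4 RPKM in spleen and 100.6 RPKM in LI over 10 peaks. The log2 ratio was -0.18 (-0.42 to 0.05), and 9 peaks were higher in spleen. A 7325-bp peak with its midpoint in an intron, at 90094453 to 90101777, had 17.0 RPKM in spleen and 15.2 RPKM in LI. The peak next to the gene end, 1983 bp at 90092266 to 90094248, had 14.8 and 9.19 RPKM, a ratio of -0.66 (-1.09 to -0.23). That peak had 36.1% GC, the lowest of the member peaks of at least 1 kb.

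Brpf1 (ENSMUSG00000001632.16, mm10 chromosome 6, 113307137 to 113324860, plus strand), a scaffold of the Kat6a and Kat6b acetyltransferases, was covered mainly by a single domain, from 28.9% to 99.2% of the gene body. That peak, 12460 bp at 113312266 to 113324725, held 82.3% of the covered bases and had 24.7 RPKM in spleen and 24.8 RPKM in LI, a ratio of 0.00 (-0.12 to 0.13). Its 4 peaks together had 50.2 and 54.0 RPKM, a ratio of 0.10 (-0.20 to 0.41), which was 0.01 with peaks weighted by length. Since 3 of the 4 also lie in the antisense gene Gm15492, and the signal has no strand, the genes cannot be told apart there.

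Zmynd11 (ENSMUSG00000021156.17, mm10 chromosome 13, 9684833 to 9765330, minus strand), a reader specific for the histone variant H3.3, had the highest ratio. Its 25 peaks summed to 248.7 RPKM in spleen and 279.8 RPKM in LI, a log2 ratio of 0.17 (-0.05 to 0.39) that includes 0, and 17 of them were higher in LI. The mark was concentrated at the far end, where the strongest peak (1729 bp, 9689941 to 9691669, 92.6% of the way along) had 25.1 and 27.8 RPKM and its neighbour (3456 bp, 9686453 to 9689908) had 20.4 and 23.8 RPKM. Of the short peaks, 5 were past 2-fold higher in LI and 3 in spleen. Zmynd11 kept nearly the same ratio after GC correction, 0.16.

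Msh6 (ENSMUSG00000005370.4, mm10 chromosome 17, 87975062 to 87990892, plus strand), which takes part in the recognition of mismatched bases, had 76.3 RPKM in spleen and 69.3 RPKM in LI over 6 peaks. The log2 ratio was -0.14 (-0.45 to 0.17), and 5 peaks were higher in spleen. The strongest peak, 4218 bp at 87983546 to 87987763 with its midpoint in a coding exon, had 18.7 and 16.7 RPKM. A 4119-bp peak at 87988806 to 87992924, which runs past the gene end and is shared with Fbxo11, had 16.3 and 12.7 RPKM (ratio -0.34, interval -0.61 to -0.07).

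**Figure D4:**
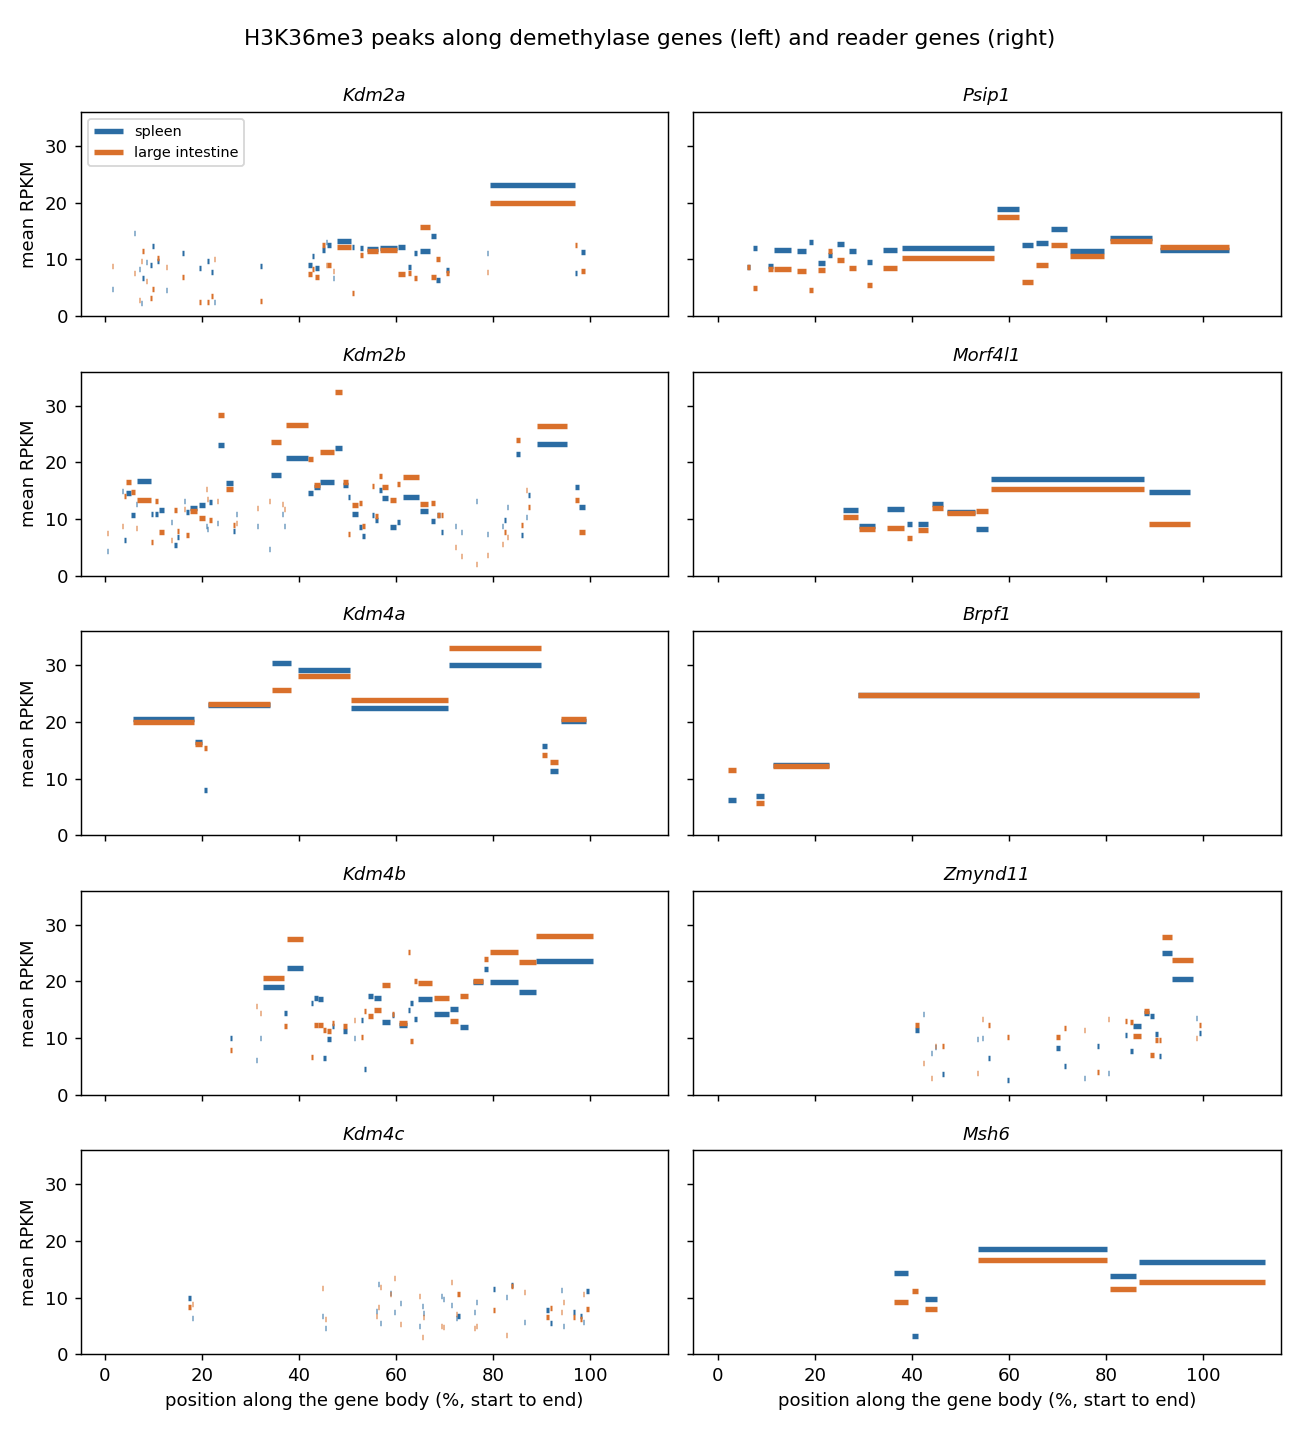
Mean RPKM of each H3K36me3 peak (bars span the peak) against position along the gene body from start to end, in spleen and large intestine, with demethylase genes on the left and reader genes on the right. Bars of both tissues nearly coincide in Brpf1, the spleen bars lie higher along most of Psip1, and the large intestine bars lie higher over most long peaks of Kdm2b and over the far end of Kdm4b.

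Of the 252 peaks, 227 (90.1%) had their midpoint in an intron, 16 in a coding exon and 9 in a UTR. Along the gene bodies, each cut into 5 equal parts, 42 of 50 parts held the midpoint of a peak. The first part was empty in 4 genes: Kdm4b, Morf4l1, Zmynd11 and Msh6. No part reached 2-fold. The interval lay above 0 in 3 parts, parts 2 and 3 of Kdm2b (0.34 and 0.28) and the last of Kdm4b (0.31). It lay below 0 in 3 parts, parts 1 and 4 of Psip1 (-0.61 and -0.44) and the last of Morf4l1 (-0.66). Over all parts of protein-coding genes with at least 200 RPKM the interval lay above 0 in 13% and below 0 in 12.9%, beside 3 and 3 of the 42 member parts. Brpf1 and Msh6 fall below that limit but are counted among the member parts. After GC correction, applied with the data known, the interval lay above 0 in 3 member parts, beside 10.1% over the coding genes. It lay below 0 in 1, beside 11%. These were parts 2 and 3 of Kdm2b (0.25 and 0.20), the last of Psip1 (0.30) and part 3 of Kdm4a (-0.22).

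Summed over the 10 genes, the ratio was -0.12 (-0.28 to 0.05) in the first part, 0.05 in part 2, 0.07 in part 3, -0.03 in part 4 and 0.00 in the last. In protein-coding genes with at least 200 RPKM, the median was -0.08 in the first part and 0.03 in the last. These are medians of the ratios of single genes, unlike the pooled sums of the members. The difference between the highest and lowest part was 0.42 in Kdm2b, 0.56 in Kdm2a and 0.61 in Psip1, and its median was 0.56 over 1742 coding genes with signal in all 5 parts. It was 0.13 in Kdm4a, where 1.09% of those genes had a smaller difference. It was 1.17 in Kdm4c, where part 2 had 2 short peaks with 21.01 RPKM in spleen and 11.4 RPKM in LI. Counting error adds to this difference, and the 1742 genes were not matched for the number of reads. Under the 200-bp assumption the reads in spleen and LI were 2777 and 3785 in Kdm4a and 393 and 488 in Kdm4c.

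**Figure D5:**
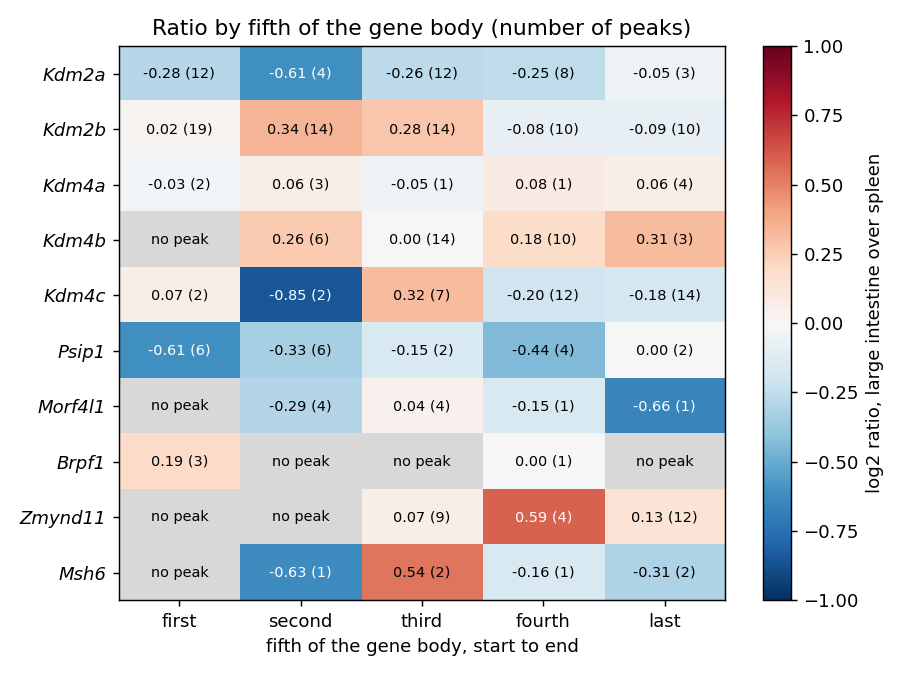
Log2 ratio of large intestine over spleen in each of 5 equal parts of the gene body from start to end, with the number of peaks in parentheses; a peak counts in the part that holds its midpoint, and grey cells hold none. Kdm2b is highest in parts 2 and 3 (0.34 and 0.28), and Psip1 is lowest in its first part (-0.61).

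The proteins these genes encode work with others, and 63 further genes were examined: other H3K36 demethylases and readers, H3K36 methyltransferases, and partners of Kdm2b, Psip1, Morf4l1, Brpf1 and Msh6. Of these, 58 passed the filter, 20 were higher in LI and 38 in spleen, and their median ratio was -0.07 (-0.05 after GC correction), where 50.7% of all genes were above 0. The counting interval lay above 0 in 4 and below 0 in 11 of them, beside 18% and 15.3% of all genes. Past 2-fold was 1 gene, Pwwp2b, a PWWP protein, with 31.6 RPKM in spleen and 69.3 RPKM in LI over 5 peaks (ratio 1.12, interval 0.65 to 1.59, and 0.93, short of 2-fold, after GC correction); it lies outside the naming rule and is given after its value was seen. The other readers had a median of -0.05 over 18 tested genes, and the 13 Morf4l1 partners of -0.12. The 4 Psip1 partners had -0.09, the 7 Kdm2b partners -0.15 and the 6 tested Brpf1 partners 0.09. The 5 methyltransferase genes had -0.24 and the 2 other demethylase genes with enough signal 0.14. Not all of these lists are independent, since the Nsd genes are both readers and methyltransferases.

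Among pathway genes with at least 200 RPKM, Bcorl1, a Polycomb corepressor related to the Kdm2b partner Bcor, had the highest ratio, with 196.4 RPKM in spleen and 331.5 RPKM in LI (0.75, interval 0.54 to 0.97). Next were Dnmt3b, a DNA methyltransferase with a PWWP domain, with 168.6 and 211.7 RPKM (0.33), and Trrap, a scaffold of acetyltransferase complexes, with 289.0 and 338.9 RPKM (0.23). The lowest were Brd8, an NuA4 complex subunit, with 154.8 and 105.1 RPKM (-0.56), Mtf2, a Polycomb protein with a Tudor domain that binds methylated H3K36, with 268.4 and 185.4 RPKM (-0.53), and Epc2, with 118.6 and 82.9 RPKM (-0.51). These genes kept their direction after GC correction, with 0.64, 0.23 and 0.18 for the first 3 and -0.46, -0.36 and -0.38 for the last 3.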

How the data were processed

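Per the labels and the study's methods, single-end reads of 75 nt were aligned to mm10 (Bowtie2; version not given in the sources used here), peaks were called with MACS2 at p 0.01 against the splenic input and merged over both tissues with bedtools. The authors deposited mean RPKM per merged peak, from RPKM tracks. The table is titled as raw counts, but its values are not whole, so no count test was run. The steps between low values gave the depth, for a 20-bp bin.

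Peaks were assigned by midpoint to GENCODE M21 gene bodies and summed. Members and lists were chosen with earlier results of these data known. No p-value was computed, since each tissue has 1 library. Genes needed 20 RPKM over both libraries, and the pseudocount of 0.5 RPKM understates the change of low genes. GC content came from GRCm38, whose length no peak exceeded on any of the 21 chromosomes. Named peaks were the strongest of each gene and, from 1 kb, those of highest and lowest ratio; named pathway genes were the 3 highest and 3 lowest with at least 200 RPKM. Python 3.11.15, numpy 2.4.6 and pandas 2.3.3 were used. The summed list of B cell markers and the separate list of Msh6 partners are not reported here.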

Additional observations from a re-analysis of the deposited data

How the results depend on the processing

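No paired analysis was possible because each tissue has 1 library, and without replicates the spread between samples is unknown. For the 10 genes, 136 ratios were recomputed under other scalings, weights, filters, peak sets and a GC correction. None passed 2-fold. With sign kept, 118 stayed within the counting interval of the reported value and 6 moved further. The other 12 changed sign. Those of Kdm4c and Brpf1 stayed within that interval, and those of Kdm4b, Morf4l1 and Psip1 fell outside it. For Kdm4a the value with length weighting and GC correction together (-0.091) fell outside it, and its other sign changes stayed within. The 118 include values that could not differ, 10 with no filter and 8 with a filter of 200 RPKM. Leaving out peaks inside another gene likewise cannot move members without such peaks. Kdm2a, Kdm2b, Zmynd11 and Msh6 did not change sign under any setting.

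With peaks of 1 kb or more alone, Kdm4a was at -0.011 and Brpf1 at -0.0088, and 3 members were higher in LI, while 119 genes of all tested were past 2-fold in LI and 39 in spleen. With the GC correction, Kdm4a was at -0.075, Kdm4b at -0.088, Kdm4c at 0.051 and Morf4l1 at 0.085, and the difference of the medians, readers minus demethylases, turned from -0.17 to 0.053. Weighting by length together with GC correction, added with the data known, gave -0.091 for Kdm4a, -0.054 for Kdm4b, 0.055 for Kdm4c, 0.065 for Psip1, 0.067 for Morf4l1 and -0.051 for Brpf1, a member median of 0.0068, a difference of 0.11 between readers and demethylases, and 241 genes past 2-fold in LI. Without scaling the member median was 0.012. The number of genes past 2-fold in LI and spleen was 624 and 457 with no filter and 68 and 38 with a filter of 200 RPKM, as fewer genes are tested, and 138 in spleen with a pseudocount of 5. With reads taken to cover 75 bp, an assumption added with the data known, the interval left out 0 in 6 members instead of 4. It did so in 0 members with the GC correction and in 2 (Kdm2b and Kdm4a) with length weighting and GC correction together, and in 4 to 6 members under every other setting, a count also added with the data known. Other causes were not tested.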
